A study of Rattus norvegicus with 12 samples.

Results

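RNA of the rat lumbar spinal cord at day 14 after SCI (spinal cord injury) was set against RNA of the same region at day 7. The comparison took the 3 libraries that the labels place at SCI, Day14 and the 3 that they place at SCI, Day7, which are 6 of the 12 libraries of the series. The other libraries were 3 sham controls at day 0 and 3 SCI samples at day 3, and they serve here as the background level and as part of the estimate of the spread between libraries. All samples are described as lumbar tissue, from segments L3 to L5 in the series' design text, and no agent, transgene or genotype is named for any group. The strain, sex and age of the rats, the kind and level of the injury, and whether each library came from a separate animal are not stated in the labels. The p-values below therefore describe how these particular samples vary, and that variation may be technical only. No sham library of day 7 or day 14 was analysed here, so time after surgery without injury is not part of the comparison. Total counts per library were 74592800, 72401700 and 70040500 at day 7 and 75516700, 71117400 and 63010300 at day 14. Levels are given in CPM, the counts of a gene scaled to a common library total after TMM scaling, a factor per library that evens out differences in composition. CPM carries no correction for gene length, so levels are compared between libraries and never between genes. Differences are log2 fold changes, day 14 minus day 7, so that a value of -1 means that the day 14 level was 50% of that at day 7. They were fitted with edgeR's quasi-likelihood test and called at an adjusted p (Benjamini-Hochberg, over all genes tested) under 0.05. Because whole tissue was sequenced, fewer cells of a type and less RNA per cell cannot be told apart in any value below.

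Cells that enter the division cycle switch on their transcripts in a fixed order. Licensing factors and the MCM helicase prepare replication origins, polymerases and nucleotide-supplying enzymes copy the DNA, cyclins with their kinases drive the transitions, and kinetochore and spindle proteins part the chromosomes. In the injured cord, microglia, astrocytes, oligodendrocyte progenitors, endothelial cells and fibroblasts are known to divide, and over the same weeks astrocytes become reactive and a scar forms.

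No gene passed the test between day 14 and day 7. Of 18714 genes tested, 0 (0%) were called in either direction by edgeR's quasi-likelihood test, and the smallest adjusted p was 1. At an unadjusted p under 0.05 there were 420 genes higher at day 14 (2.24% of those tested) and 266 lower (1.42%). Together these were 686 genes (3.67%), a share below the 0.05 that well-calibrated p-values give when no gene differs. DESeq2 called 49 genes, 30 higher and 19 lower, and limma's voom with sample weights called 0, with 924 at an unadjusted p under 0.05. Some DESeq2 calls had fitted differences of extreme size, such as Tmem139 at 21.1, Tbpl1 at 20.6 and a gene without a symbol at -22.6. Genes described below that DESeq2 called lower include Pfkl, Masp1, Mrpl45, Pdpn and Cry1. Those that it called higher include Ptgds, Zfp536 and the sensory neuron genes Scn10a, Trpm8, Trpv1 and Trpa1. The libraries of the days did not overlap for 1011 genes that lay above day 7 in every day 14 library (5.40%) and for 904 that lay below it (4.83%). The median difference over all genes tested was 0.01, the 10th and 90th percentiles were -0.46 and 0.60, with 48.8% of genes below 0 and 51.2% above. The account that follows therefore gives levels library by library, and counts of members without overlap or at a low unadjusted p are to be read against these shares over all genes. None of the differences named below passed the adjusted test in edgeR.

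The libraries of each day were not alike. On the leading principal component of the 6 libraries, which held 30.2% of their variance, day 14 replicate 2 stood apart from the rest, and the next, with 25.4%, separated day 7 replicate 2 from day 14 replicate 1. Day 7 replicate 2 was the library with the most muscle RNA: Acta1, the actin of skeletal muscle, read 60.1 CPM there and between 0.72 and 3.39 CPM in the other 11 libraries. Day 7 replicate 1 was rich in red-cell RNA, with Hbb-b1, a haemoglobin chain, at 5886 CPM against 140 to 1115 CPM in the others. Day 14 replicates 1 and 2 carried RNA of sensory ganglion neurons: Scn10a, a sodium channel of pain-sensing neurons, read 79.6 and 131 CPM there and 0.18 CPM in replicate 3. Differences that rest on these libraries are given below with and without them. The tissue itself carried its defining transcripts in all 6 libraries. Mbp, the main myelin protein of oligodendrocytes, ranged from 16201 to 23058 CPM. Slc12a5, the neuronal chloride exporter, ranged from 94.7 CPM in day 14 replicate 2 to 456 CPM in day 14 replicate 1. Chat, the enzyme that makes acetylcholine in motor neurons, ranged from 22.0 to 55.9 CPM. The differences of Mbp, Slc12a5 and Chat were -0.09, -0.14 and -0.12, each smaller than its standard error.

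Proliferation transcripts were lower at day 14 than at day 7 in nearly the whole list, without any member passing the test. Of 125 symbols in 4 lists ordered by role, 122 were in the table and all 122 passed the filter on low counts. 119 had a fitted difference below 0, and the median was -1.04, with a range from -3.23 to 0.15. In 46 of them (37.7%) every day 14 library lay below every day 7 library, beside 4.83% of all genes, and in 0 was the order the opposite. Only 3 members reached an unadjusted p under 0.05, beside 1.42% of all genes: Kif22, Ube2c and Cdc7. The mean log2 level of the 122 genes, taken relative to the mean of the sham libraries, was 1.02, 2.27 and 1.0 at day 7 and 0.02, 0.76 and 0.67 at day 14. Day 7 replicate 2 was thus the highest of the 6 and day 14 replicate 1 the lowest, at the level of the sham libraries, which read -0.04, 0.22 and -0.18. At day 3 the same measure was 3.02, 0.55 and 0.32, so the highest library of all 12 was day 3 replicate 1.

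Among the licensing and helicase genes, 17 of 19 were below 0, 9 (47.4%, beside 4.83% of all genes) did not overlap, and the median was -0.82. Mcm6, a subunit of the replicative helicase, read 12, 33.9 and 16.7 CPM at day 7 and 8.02, 8.28 and 10.2 CPM at day 14. All 3 day 14 libraries lay below the lowest day 7 library and close to the sham range of 6.82 to 7.88 CPM, and the difference was -1.24 (SE 0.57, unadjusted p = 0.0536). Mcm5, another subunit, read 8.94, 34.5 and 17 CPM and then 4.91, 9.15 and 8.01 CPM, so its days overlapped, with a difference of -1.45. Cdc7, the kinase that fires licensed origins, was at 8.36, 8.80 and 7.85 CPM at day 7 and at 5.71, 2.72 and 5.75 CPM at day 14. Its day 7 libraries were close together, unlike those of most members, and all day 14 libraries lay below them (-0.82, SE 0.36, unadjusted p = 0.0472). Cdt1, a licensing factor, and Gins1, part of the helicase complex, were also without overlap, at -1.25 and -1.49. The members above 0, which were Cdc45 at 0.07 and Gins4 at 0.06, act in the same helicase complex and overlapped between the days.

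The genes of DNA synthesis and nucleotide supply showed the smallest difference of the 4 roles, with 28 of 28 below 0, 7 (25%, beside 4.83%) without overlap and a median of -0.47, which was -0.17 without day 7 replicate 2. Pcna, the sliding clamp of the DNA polymerases, read 42.9, 82.0 and 56.3 CPM at day 7 and 36.0, 52.9 and 36.4 CPM at day 14, with overlap and a difference of -0.53 (SE 0.38). Exo1, a repair exonuclease, read 2.47, 6.43 and 1.75 CPM and then 0.99, 1.07 and 1.0 CPM. Uhrf1, which carries DNA methylation through replication, read 8.67, 21.4 and 12.1 CPM and then 4.29, 4.83 and 6.93 CPM. Both lay lower in every day 14 library, by -1.80 and -1.39. Rrm2, a subunit of ribonucleotide reductase, showed how far 1 library weighs. It read 10.4, 74.1 and 9.42 CPM at day 7 against 4.93, 11.5 and 9.96 CPM at day 14, and its difference of -1.83 was -0.17 without day 7 replicate 2.

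All 21 cyclins, kinases and cell-cycle transcription factors tested were below 0, 8 of them (38.1%, beside 4.83%) without overlap, with a median of -1.06 that was -0.60 without day 7 replicate 2. Ccnb1, the cyclin that drives entry into mitosis, was at 7.89, 25.5 and 5.96 CPM at day 7 and at 2.37, 4.07 and 4.90 CPM at day 14. The day 14 values lay just below the lower day 7 libraries and around the sham range of 2.30 to 4.15 CPM, with a difference of -1.80 (SE 0.98, unadjusted p = 0.0939). Ccnb2 and Ccna2, further cyclins of the late cycle, were without overlap at -2.39 and -1.94. Cdk1, their kinase, read 5.14, 23.4 and 4.77 CPM and then 1.12, 3.56 and 4.81 CPM, where the third day 14 library overlapped the third of day 7.

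Of the kinetochore, spindle and cytokinesis genes 53 of 54 were below 0 and 22 (40.7%, beside 4.83%) were without overlap. Their median of -1.45 was the lowest of the 4 roles with all libraries, but it was -0.46 without day 7 replicate 2, where the cyclins (-0.60) and the licensing genes (-0.53) lay lower. Mki67, the Ki-67 protein that coats mitotic chromosomes and marks cycling cells, read 38.4, 106 and 41.5 CPM at day 7 and 9.84, 28.1 and 21.8 CPM at day 14. Every day 14 library lay below every day 7 library, the difference was -1.64 (SE 0.97, unadjusted p = 0.119), and the sham libraries ranged from 6.38 to 17.8 CPM. Top2a, the topoisomerase that untangles sister chromosomes, read 23.0, 87.5 and 21.2 CPM and then 4.38, 14.2 and 11.9 CPM (-2.11, SE 1.09, unadjusted p = 0.0813). For both genes day 7 replicate 2 was well above its companions. Ube2c, the ubiquitin carrier of the anaphase-promoting complex, read 3.64, 10.4 and 5.21 CPM and then 0.45, 1.18 and 1.21 CPM (-2.75, SE 1.16, unadjusted p = 0.0374). Kif22, a kinesin that moves chromosome arms, read 0.73, 7.39 and 1.43 CPM and then 0.15, 0.63 and 0.23 CPM (-3.23, SE 1.08, unadjusted p = 0.0127). Day 7 replicate 2 carried most of that difference, since Kif22 ranged from 0.06 to 1.43 CPM in every other library of the series. In day 3 replicate 1 it read 1.12 CPM. Nuf2, a core protein of the kinetochore, read 4.74, 22.1 and 4.75 CPM and then 1.91, 3.17 and 2.67 CPM (-2.03), and Cenpa, the histone of centromeres, was also without overlap (-2.02). The exception was Stmn1, a tubulin-binding protein that neurons also make, at 0.15 with overlap.

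**Figure D1:**
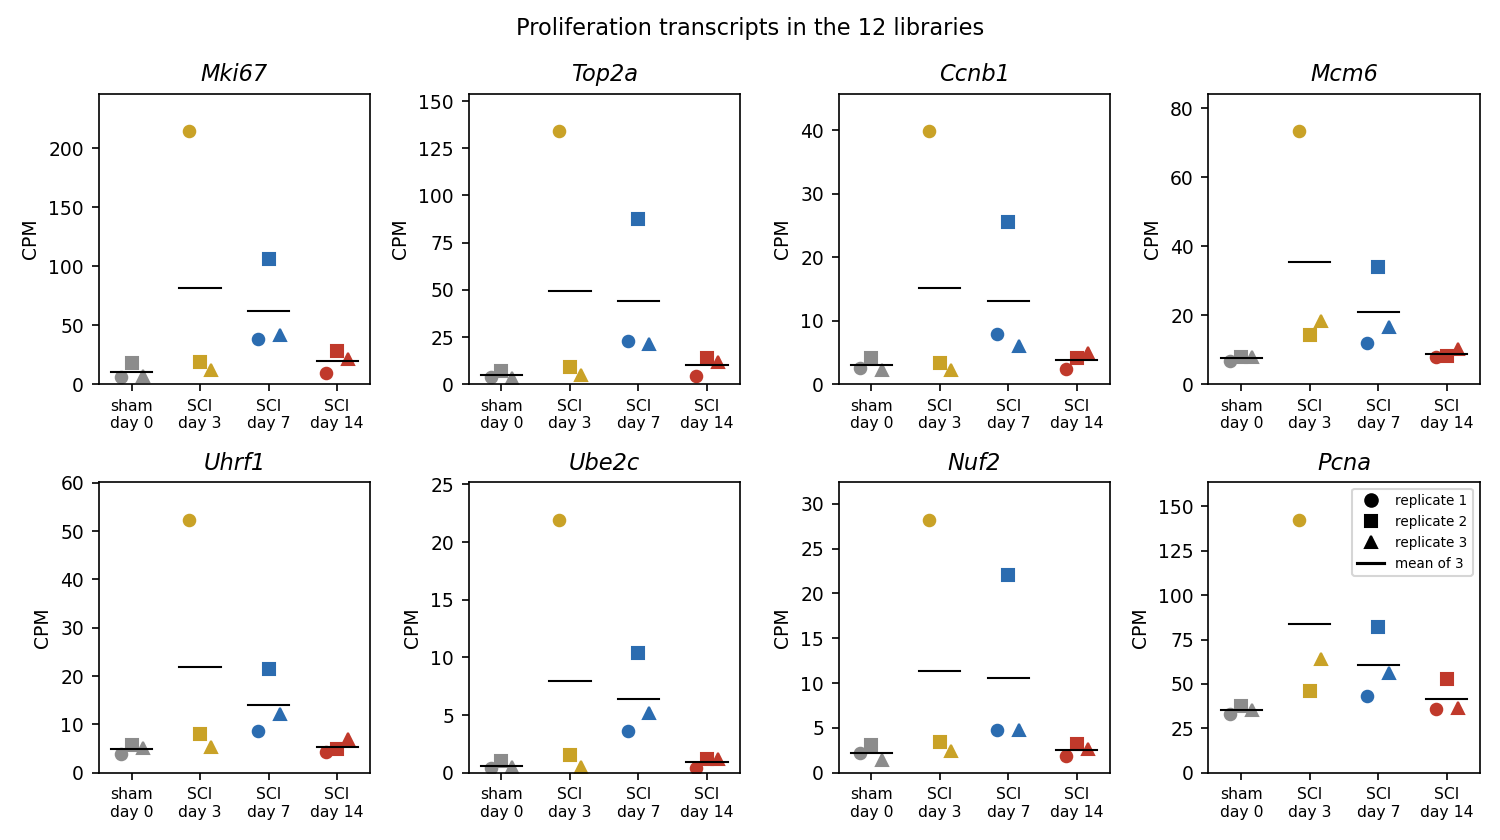
CPM of 8 proliferation genes in each library (points, shaped by replicate) with the mean of each group of 3 (line). For Mki67, Top2a, Ccnb1, Mcm6, Uhrf1, Ube2c and Nuf2 the day 14 points lie below all day 7 points, while Pcna overlaps, and the highest library of day 7 is replicate 2 in every panel.

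**Figure D2:**
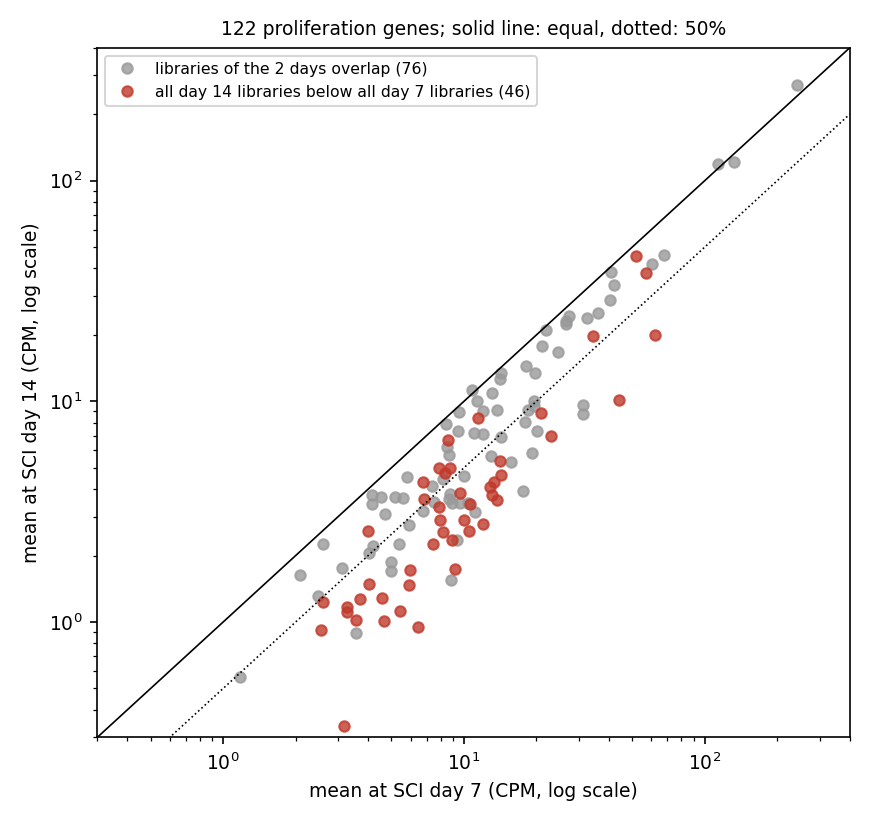
Mean CPM at day 14 (vertical) against mean CPM at day 7 (horizontal), both on log scales, for the 122 proliferation genes, with the 46 genes whose libraries do not overlap in red. Nearly all points lie below the solid line of equal levels, and many lie below the dotted line, which marks a day 14 level at 50% of day 7.

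Many promoters of late-cycle genes carry the CCAAT box and the cell cycle homology element TTTGAA, and E2F sites such as GGCGGGAA are known from early-cycle genes. The promoters below show these letters, or their absence, for members whose libraries did not overlap. They are the 3 members of smallest p with an entry in the RefSeq table, on the assembly GRCr8, to which Top2a was added after its values were seen. Each is the stretch of 250 bases before the annotated start, read 5′ to 3′ on the strand of the gene, here the minus strand for all 4. Capitals mark CCAAT and TTTGAA on either strand, so that ATTGG and TTCAAA are the same motifs read from the opposite strand. Kif22 lies at chr1:191080879-191081128, Cdc7 at chr14:2969657-2969906, Nuf2 at chr13:84255599-84255848 and Top2a at chr10:84473094-84473343.
Kif22: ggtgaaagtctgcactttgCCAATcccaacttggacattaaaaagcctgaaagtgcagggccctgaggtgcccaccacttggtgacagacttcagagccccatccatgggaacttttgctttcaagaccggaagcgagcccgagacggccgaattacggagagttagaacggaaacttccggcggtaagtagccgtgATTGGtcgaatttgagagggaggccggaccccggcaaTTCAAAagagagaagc
Cdc7: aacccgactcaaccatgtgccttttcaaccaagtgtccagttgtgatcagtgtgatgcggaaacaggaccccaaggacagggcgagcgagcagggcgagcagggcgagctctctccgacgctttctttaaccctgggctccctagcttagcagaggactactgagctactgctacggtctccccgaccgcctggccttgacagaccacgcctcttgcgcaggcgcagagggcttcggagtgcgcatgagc
Nuf2: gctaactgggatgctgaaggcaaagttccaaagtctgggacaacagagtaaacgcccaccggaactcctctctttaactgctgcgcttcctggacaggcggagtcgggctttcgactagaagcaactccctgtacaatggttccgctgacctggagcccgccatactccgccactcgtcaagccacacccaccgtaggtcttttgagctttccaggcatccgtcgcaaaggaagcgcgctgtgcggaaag
Top2a: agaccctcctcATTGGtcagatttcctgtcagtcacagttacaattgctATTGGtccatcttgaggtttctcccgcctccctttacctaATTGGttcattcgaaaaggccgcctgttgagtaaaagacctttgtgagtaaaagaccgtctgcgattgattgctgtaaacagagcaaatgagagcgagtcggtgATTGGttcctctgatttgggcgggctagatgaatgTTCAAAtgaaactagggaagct
Kif22 held 2 CCAAT motifs and 1 TTTGAA motif, the latter starting 16 bases before the start site. Top2a held 4 CCAAT motifs and 1 TTTGAA motif, the latter starting 22 bases before it. Cdc7 and Nuf2 held neither in this window, and GGCGGGAA was in none of the 4.

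Over the whole list, 100 of the 122 tested members had an entry in the promoter table, and Ube2c had none. CCAAT on either strand was present in 65 of these 100 (65.0%), beside 34.9% of the 12501 promoters of genes tested and 34.0% of all 33469 promoters of the table. TTTGAA was present in 34 of 100 (34.0%), beside 10.9% and 16.2%. By role, TTTGAA was in 24 of 48 promoters of kinetochore and spindle genes and in 2 of 24 of DNA synthesis genes. GGCGGGAA was in 6 of 100 (6.0%), beside 2.92% and 1.52%, and 4 of the 6 belonged to DNA synthesis genes. These counts describe letters only.

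The size of the proliferation difference rested on day 7 replicate 2, while the median stayed below 0 without it. Without that library the median of the 122 genes was -0.34, 108 were below 0, 0 reached an unadjusted p under 0.05, and 46 did not overlap (37.7%, beside 8.05% of all genes in that fit). Mki67 was then at -1.01 and Top2a at -1.12. Without day 7 replicates 1 and 2 together the median was -0.32 with 98 below 0, and without day 14 replicates 1 and 2 it was -0.91 with 114 below 0. Without day 7 replicate 2 and day 14 replicates 1 and 2, a setting chosen after seeing the data, it was -0.28 with 97 below 0. The number of members lower at an unadjusted p under 0.05 also depended on the fit. It was 57 of 122 without day 3 replicate 1, a library outside the comparison, where 951 of 19071 genes reached it in either direction. It was 44 with only the day 7 and day 14 libraries (942 of 18037 genes) and 14 with DESeq2 (1042 of 18714). In these fits 0 members passed the adjusted test. Muscle transcripts were also highest in day 7 replicate 2. Members of the skeletal muscle list summed to 432.9 CPM there against 93.8 to 273.6 CPM in the other 11 libraries. Those of the T, B and NK cell list summed to 22.3 CPM there against 2.58 to 30.7 CPM in the other 11, with the highest in day 3 replicate 1. Their part in the result was not tested.

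Transcripts of glycolysis and the hypoxia response were lower at day 14 in a way that did not rest on any 1 library. Of 23 members tested, 21 were below 0, 8 (34.8%, beside 4.83% of all genes) did not overlap, all of them lower, and 7 had an unadjusted p under 0.05 (all lower, beside 1.42% of all genes). The median was -0.36, and it stayed between -0.46 and -0.33 when each library was left out in turn. Pfkl, a phosphofructokinase at the committed step of glycolysis, read 143, 96.4 and 130 CPM at day 7 and 78.5, 79.2 and 78.4 CPM at day 14. The day 14 libraries were nearly equal and within the sham range of 73.0 to 88.5 CPM, so that day 7 stood above both (-0.65, SE 0.15, unadjusted p = 0.00149; adjusted p = 0.0113 with DESeq2). Pgk1, which makes ATP in the pathway, read 426, 342 and 364 CPM and then 284, 218 and 282 CPM (-0.53, SE 0.16). Pfkfb3, whose product stimulates phosphofructokinase, read 72.6, 75.6 and 158 CPM and then 49.5, 61.6 and 42.1 CPM (-1.0, SE 0.28). Both were without overlap, as were Eno1, Tpi1 and Pdk1, with enzymes of the pathway or its link to the mitochondria as products, at -0.53, -0.54 and -0.47. Vegfa, the angiogenic growth factor induced by low oxygen, was at 267, 89.4 and 174 CPM and then at 97.0, 51.0 and 60.8 CPM, where only day 14 replicate 1 exceeded the lowest day 7 library (-1.34, SE 0.38, unadjusted p = 0.00494).

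Mitochondrial transcripts were lower as well, by less. All 13 genes encoded on the mitochondrial genome were below 0, 4 (30.8%, beside 4.83% of all genes) without overlap, with a median of -0.34, and mitochondrial reads made up 10.8, 10.4 and 9.18% of counts at day 7 and 8.12, 6.47 and 9.67% at day 14. Mt-nd3, a subunit of complex I, read 165, 144 and 120 CPM at day 7 and 107, 102 and 110 CPM at day 14, without overlap (-0.43, unadjusted p = 0.0857). Among 26 nuclear genes of oxidative phosphorylation, 23 were below 0 and 6 (23.1%, beside 4.83%) lay lower in every day 14 library, with a median of -0.14. Cox7b, a subunit of cytochrome oxidase, read 34.7, 32.8 and 31.5 CPM and then 29.5, 19.2 and 20.3 CPM (-0.52, unadjusted p = 0.0441). Day 14 replicate 2, with the lowest mitochondrial share, was also the library that stood apart on the leading component, and the mitochondrially encoded median was -0.22 without it. Mrpl45 and Mrps6, proteins of the mitochondrial ribosome, were among the genes of smallest p, at -0.44 and -0.90.

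Among reactive astrocyte transcripts, those of the intermediate filament Gfap and of several acute-phase members were lower at day 14, while few members of the list were without overlap. Of 25 tested, 18 were below 0, 4 had an unadjusted p under 0.05 (all lower, beside 1.42% of all genes) and 2 (8%, beside 4.83%) did not overlap, with a median of -0.46. Gfap, the astrocyte filament protein, read 7564, 8365 and 7028 CPM at day 7 and 1243, 5275 and 2590 CPM at day 14. The day 7 libraries were close together and far above the sham range of 1004 to 2346 CPM, whereas the day 14 libraries were spread from the sham level upward (-1.33, SE 0.57, unadjusted p = 0.0411). Lcn2, the acute-phase lipocalin, read 13.9, 15.9 and 79.1 CPM and then 1.62, 12.1 and 9.63 CPM (-2.22, unadjusted p = 0.0464). Hspb1, a small heat shock protein, and Ptx3, a secreted pentraxin, overlapped, at -1.64 and -3.94, and for Ptx3 day 7 replicate 3 alone was high at 104 CPM. The median of the list moved to -0.04 without day 7 replicate 3 and to -0.93 without day 14 replicate 2. Of 19 homeostatic astrocyte genes 14 were below 0, with a median of -0.12, and 1 (5.26%, beside 5.40% of all genes) was higher without overlap. That gene was S100b, a calcium-binding protein of mature astrocytes and of myelinating glia, with 1771, 1740 and 1682 CPM and then 2008, 2553 and 2262 CPM (0.39, SE 0.17, unadjusted p = 0.0430).

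The genes of smallest p that were lower at day 14, with no overlap and at least 5 CPM in the higher group, included those of secreted and surface proteins. Pdpn, a surface glycoprotein of reactive astrocytes and fibroblasts, read 118, 219 and 237 CPM at day 7 and 36.5, 99.8 and 40.7 CPM at day 14, above sham levels of 26.4 to 27.9 CPM throughout (-1.70, SE 0.42, unadjusted p = 0.00216). Chi3l1, a secreted chitinase-like protein, read 210, 134 and 177 CPM and then 57.0, 91.0 and 73.6 CPM, against 50.6 to 55.8 CPM in sham (-1.23, SE 0.32). Igfbp2, a binding protein of insulin-like growth factors, read 96.5, 153 and 93.7 CPM and then 58.3, 49.9 and 28.4 CPM (-1.33, SE 0.35). In all 3 genes day 14 lay between day 7 and sham or at sham. Masp1, a protease of the lectin pathway of complement, had the smallest p of the lower genes. It read 56.9, 59.9 and 65.7 CPM at day 7 and 25.6, 35.5 and 36.6 CPM at day 14 (60.8 ± 4.49 against 32.6 ± 6.08 CPM, SD, n = 3), with sham at 25.4 to 33.4 CPM, and its difference was -0.90 (SE 0.20, unadjusted p = 0.00103 in edgeR's test). Alox5, the lipoxygenase that starts leukotriene synthesis, was at -1.39, Upp1, a uridine phosphorylase, at -1.69, and F2rl1, a protease-activated receptor, at -2.26. The rest of the 15 were Mall, Fam167a, Fam162a, Abca4 and S100a16 with Pfkl, Mrpl45 and Mrps6, at -0.44 to -2.43.

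Contractile and vascular lists each held 1 or 2 lower members without overlap. Tagln, an actin-binding protein of smooth muscle and contractile fibroblasts, read 309, 380 and 159 CPM at day 7 and 39, 99.9 and 59.8 CPM at day 14, with sham at 27.3 to 34.6 CPM (-2.10, SE 0.70, unadjusted p = 0.0131). The 13 pericyte and smooth muscle genes tested had a median of 0.04, and 2 (15.4%, beside 4.83% of all genes) lay lower without overlap. They were Tagln and Des, the muscle filament desmin, which was at -0.68. Of 16 endothelial genes 13 were below 0, with a median of -0.28, and 1 lay lower without overlap (6.25%, beside 4.83% of all genes), Esam, an adhesion protein, at -0.54, and 1 higher (6.25%, beside 5.40%), Tek, the angiopoietin receptor, at 0.35. Flt1, a receptor of vascular growth factors, was at 130, 78.1 and 134 CPM and then at 84.8, 59.1 and 78.8 CPM (-0.62), and Pecam1, the junction protein of endothelium, overlapped between the days (-0.53). Fibrillar and basement membrane genes leaned upward, with 28 of 35 above 0, 3 (8.57%) without overlap higher, beside 5.40% of all genes, and a median of 0.41 that was 0.04 without day 14 replicates 1 and 2. Col1a1, the main fibrillar collagen, read 149, 874 and 504 CPM and then 706, 720 and 1161 CPM, with overlap (0.76, SE 0.70). Thbs2, a matrix glycoprotein of fibroblasts, lay opposite at 148, 298 and 349 CPM and then 53.6, 143 and 112 CPM (-1.37).

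**Figure D3:**
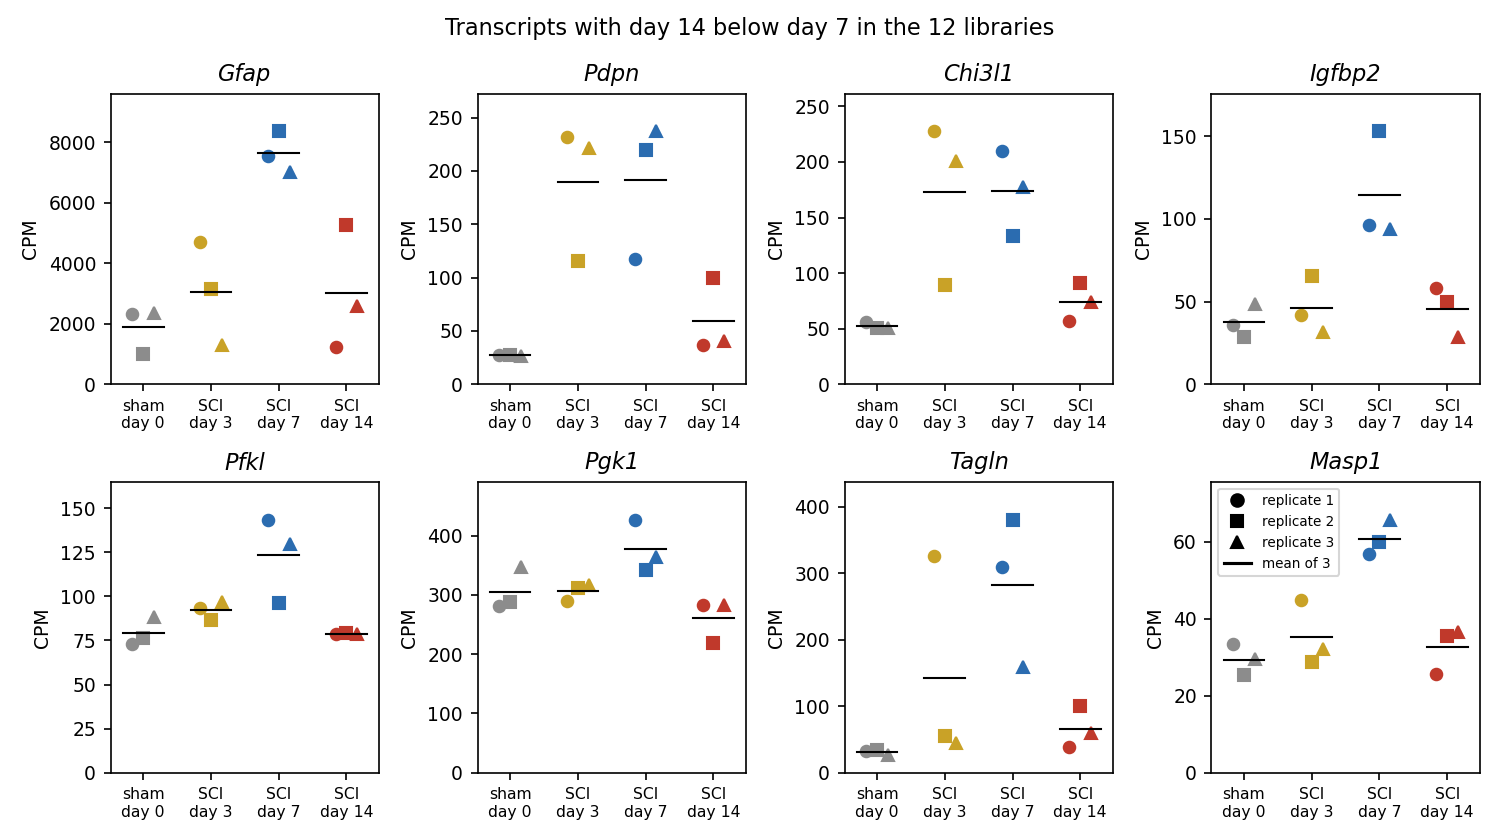
CPM of 8 genes lower at day 14 in each library (points, shaped by replicate), with the mean of each group of 3 (line). Gfap, Pdpn, Chi3l1, Igfbp2, Pfkl, Pgk1, Tagln and Masp1 all have their 3 day 14 points below the 3 day 7 points, and for Pfkl the day 14 points lie within the sham range of 73.0 to 88.5 CPM.

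Immune transcripts differed by library more than by day. The 30 microglial and phagocyte genes had a median of -0.01, and the 14 homeostatic microglia genes one of -0.10. Aif1, the microglial protein Iba1, read 19.3, 37.9 and 23.5 CPM at day 7 and 5.35, 23.4 and 18.8 CPM at day 14 (-0.77), and Cd68, a lysosomal protein of phagocytes, read 9.17, 48.1 and 14.6 CPM and then 4.08, 83.7 and 40.6 CPM (0.84). Both overlapped, and the direction for Cd68 turned without day 14 replicate 2. Apoe, the lipid carrier of glia and lipid-laden phagocytes, was higher in day 14 replicates 2 and 3, at 4524 and 4801 CPM, than in any other library, while replicate 1 stayed at 1472 CPM, beside 1439 to 2246 CPM at day 7 (1.03, SE 0.41, unadjusted p = 0.0316). Abcg1, an exporter of cholesterol, had the same order, with 57.7, 77.0 and 114 CPM at day 14 and 46.7 to 60.3 CPM at day 7 (0.67). C3, the central complement protein, was highest in day 14 replicate 2, with 78.4, 846 and 207 CPM against 70.4, 111 and 95.2 CPM (2.03). Day 14 replicate 3 also exceeded all day 7 libraries in C3, and replicate 1 did not. Hmox1, which breaks down haem, read 41.5, 222 and 169 CPM and then 13.2, 42.3 and 41.5 CPM (-2.16, unadjusted p = 0.0128). All 16 monocyte and border macrophage genes were below 0 with a median of -0.43, and 26 of 32 interferon response genes were, with a median of -0.27, but 0 genes of either list were without overlap. Cd74, the invariant chain of MHC class II, was at 269 CPM in day 14 replicate 2 and at 28.9 to 77.9 CPM in the other 5 libraries, so that the class II median of 0.54 was -0.79 without that library.

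Lists of synaptic transmission and of the oligodendrocyte lineage had medians between -0.14 and 0.11. They were -0.05 for 29 genes of GABA and glycine transmission, -0.09 for 25 of glutamate transmission, 0.11 for 22 of synaptic vesicles, -0.05 for 19 of myelin and -0.14 for 15 of oligodendrocyte progenitors. In the vesicle, GABA and glycine, progenitor and myelin lists, 0 members lay outside the other day's range. The mean log2 level of the GABA and glycine list, relative to the sham mean, was -0.19, -0.82 and -0.84 at day 7. At day 14 it was -0.17, -1.67 and -0.48, lowest in replicate 2. The glutamate list was also lowest there, at -0.97, while the vesicle list was at -0.93 there and at -0.95 in day 7 replicate 2. Other neuronal lists lay further from 0. The 14 genes of cholinergic motor neurons had a median of 0.44, with 9 above 0 and 0 without overlap, which was -0.41 without day 14 replicates 1 and 2. That list shares members such as Isl1 (2.12) and Calca (1.49) with the list of dorsal root ganglion sensory neurons below, while Chat was at -0.12. The 18 spinal neuropeptides had a median of -0.36, with 11 below 0 and 2 (11.1%, beside 4.83% of all genes) lower without overlap, which was 0.12 without day 7 replicates 1 and 2. Of 20 perineuronal net and tenascin genes 3 (15%, beside 4.83%) were lower and 1 (5%, beside 5.40%) was higher without overlap, with a median of -0.14. Among them were Chst11, a chondroitin sulfotransferase, at -0.59 and Hapln3, a link protein, at 0.44. Ncan, a proteoglycan of perineuronal and glial matrix, lay lower as well, with 134, 304 and 188 CPM at day 7 and 58.3, 75.0 and 54.9 CPM at day 14 (-1.74, SE 0.63, unadjusted p = 0.0193). Fabp7, a fatty-acid binding protein of immature astrocytes and satellite glia, read 154, 249 and 128 CPM and then 40.9, 111 and 72.1 CPM (-1.25, SE 0.40). In both genes all day 14 libraries lay below those of day 7.

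The highest median of the 52 lists was that of dorsal root ganglion sensory neurons, and it rested on day 14 replicates 1 and 2. All 34 list members were above 0, 19 had an unadjusted p under 0.05 (beside 2.24% of all genes), 5 (14.7%) were without overlap, beside 5.40% of all genes, and the median was 1.94. Scn10a read 0.68, 0.67 and 1.05 CPM at day 7 and 79.6, 131 and 0.18 CPM at day 14 (6.46, SE 2.01, unadjusted p = 0.00866), and at day 3 replicate 2 alone was high, at 19.6 CPM. Trpm8, the cold sensor, read 0.40, 0.37 and 0.27 CPM and then 9.05, 14.9 and 0.38 CPM (4.54). Trpv1, the heat and capsaicin receptor, read 3.02, 2.30 and 3.33 CPM and then 22.5, 25.9 and 5.26 CPM (2.63). Scn10a and Trpm8 overlapped through replicate 3, whereas Trpv1 lay above day 7 in all 3. Members of the list summed to 888, 476 and 775 CPM at day 7 and to 1758, 2773 and 806 CPM at day 14, and Prdm12, a transcription factor of pain-sensing neurons, was at 0 in day 14 replicate 3 and in day 7 replicates 2 and 3. Without day 14 replicates 1 and 2 the median was -0.17, Scn10a was at -2.13, and Trpa1, a channel of pain-sensing neurons, was at -0.10 instead of 4.01. The labels name lumbar cord tissue for all samples.

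Schwann cell and meningeal transcripts were also higher in those libraries than at day 7, in part. The mean log2 level of the Schwann and satellite cell list, relative to the sham mean, was 0.93, 1.07 and 0.42 at day 14. It was -0.39, -0.93 and 0.71 at day 7. Libraries outside the comparison reached such levels as well, with 1.04 in sham replicate 2 and 1.75 in day 3 replicate 3. Of 21 Schwann and satellite cell genes 17 were above 0, with a median of 0.86 that was 0.46 without day 14 replicates 1 and 2. Without overlap, 4 (19.0%, beside 5.40% of all genes) were higher and 1 (4.76%, beside 4.83%) was lower. The lower gene was Fabp7 (-1.25), which had the smallest p of the list. Ngfr, the low-affinity neurotrophin receptor, read 10.7, 57.7 and 30.2 CPM at day 7 and 83.2, 212 and 57.3 CPM at day 14 (1.84, SE 0.61, unadjusted p = 0.0127), and Erbb3, the neuregulin receptor of Schwann cells, read 79.2, 75.4 and 107 CPM and then 146, 144 and 133 CPM (0.70). Ngfr overlapped by a narrow margin and Erbb3 did not. Of 16 meningeal and perineurial genes 13 were above 0, with a median of 0.73 that was -0.38 without those libraries. Of these 16, 2 (12.5%, beside 5.40%) were higher without overlap and 1 (6.25%, beside 4.83%) was lower, Igfbp2 at -1.33. Slc47a1, a transporter of meningeal cells, read 33.8, 122 and 0.98 CPM at day 14 beside 1.03 to 1.93 CPM at day 7.

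Among the 15 genes of smallest p that were higher without overlap, some depended on these libraries and some did not. Without day 14 replicates 1 and 2, Col6a5, a collagen chain, went from 3.19 to 0.96, Dgkh, a diacylglycerol kinase, from 2.01 to 0.40, Tyrp1, a melanin enzyme, from 5.64 to 2.39, and Wnt16, a secreted ligand, from 2.49 to 0.39. Ptgds, the prostaglandin D synthase of meninges and oligodendrocytes, read 221, 207 and 274 CPM at day 7 and 575, 919 and 506 CPM at day 14 (234 ± 35.5 against 667 ± 221 CPM, SD, n = 3). Every day 14 library lay above the sham range of 337 to 489 CPM and every day 7 library below it, with the smallest p of all the higher genes named (1.51, SE 0.32, unadjusted p = 0.000712 in edgeR's test), and 1.08 without those libraries. Zfp536, a zinc finger repressor of neural cells, was at 22.5, 22.4 and 24.3 CPM at day 7 and at 33.8, 34.5 and 31.5 CPM at day 14, the level of sham at 31.1 to 33.9 CPM (0.53, SE 0.12, unadjusted p = 0.00149). Srebf1, a transcription factor of lipid synthesis, read 97.6, 53.5 and 64.3 CPM and then 105, 141 and 157 CPM (0.90), and Net1, an exchange factor of small GTPases, read 38.2, 40.9 and 27.4 CPM and then 49.1, 87.0 and 78.7 CPM (1.01). Without day 14 replicates 1 and 2 both were slightly higher, at 1.11 and 1.12. The rest were Lifr, the receptor of leukaemia inhibitory factor, at 1.19, Pcsk1, a prohormone convertase, at 1.30, Hmcn1 at 1.91, Eef1akmt2 at 1.45 and Rbms3 at 1.05. The 23 cholesterol synthesis genes had a median of -0.01.

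**Figure D4:**
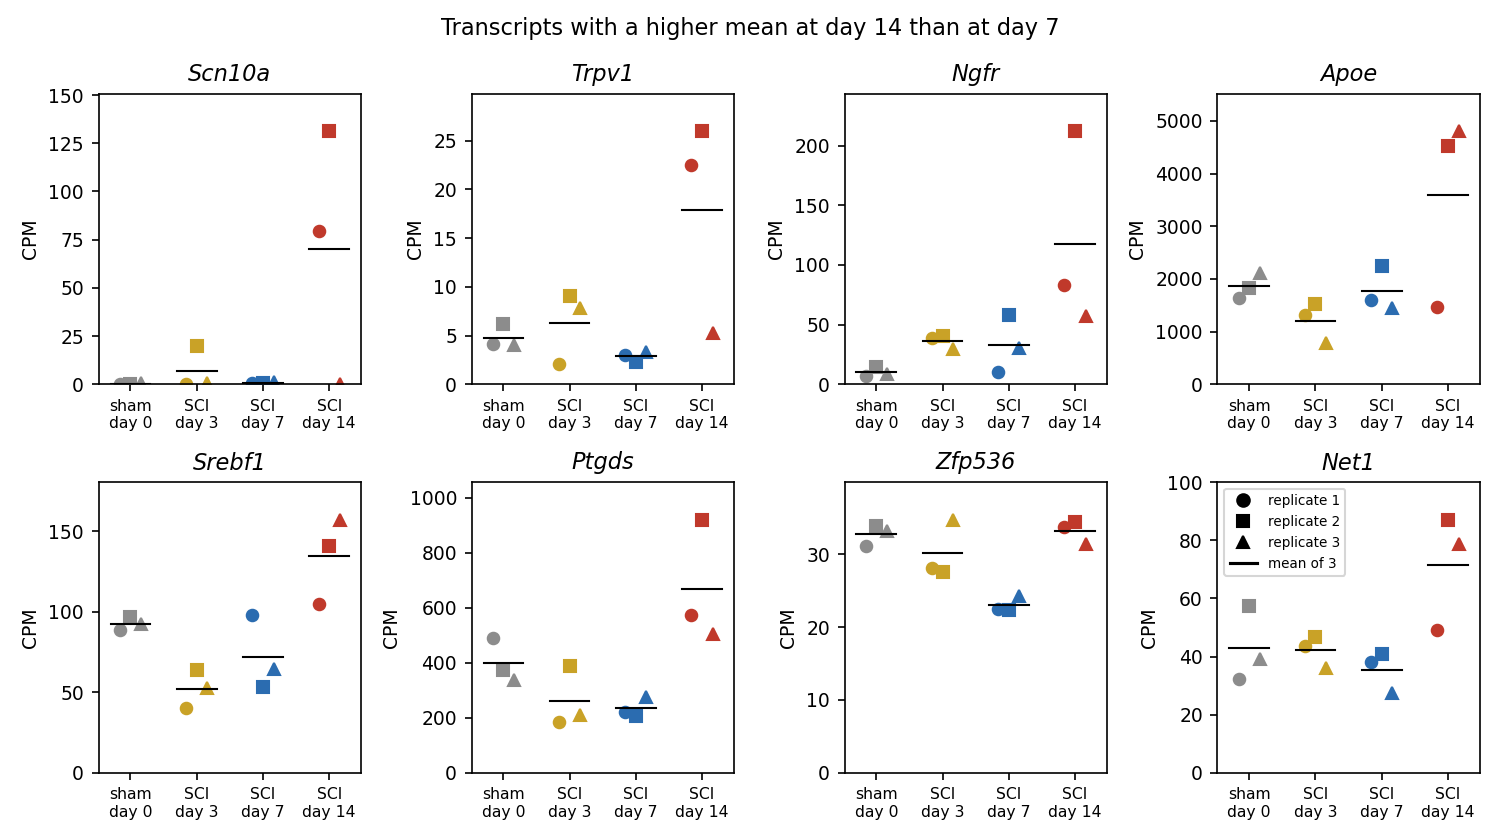
CPM of 8 genes with a higher mean at day 14 in each library (points, shaped by replicate), with the mean of each group of 3 (line). Scn10a and Trpv1 are highest in day 14 replicates 1 and 2, Apoe in replicates 2 and 3, and Zfp536 at day 14 lies at the sham level of 31.1 to 33.9 CPM, above day 7.

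The lower levels of red-cell and muscle transcripts at day 14 rested on single day 7 libraries. All 11 erythrocyte genes were below 0 with a median of -2.34, which was -0.32 without day 7 replicate 1. Alas2, the haem synthesis enzyme of red-cell precursors, read 278, 44.9 and 31.5 CPM at day 7 and 48.1, 14.0 and 5.29 CPM at day 14, with overlap. All 22 skeletal muscle genes were below 0 with a median of -1.16, which was 0.40 without day 7 replicate 2. Tnnc2, a troponin of fast muscle, read 8.44, 8.34 and 4.58 CPM and then 2.18, 1.22 and 1.06 CPM (-2.26), without overlap and not led by that library.

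**Figure D5:**
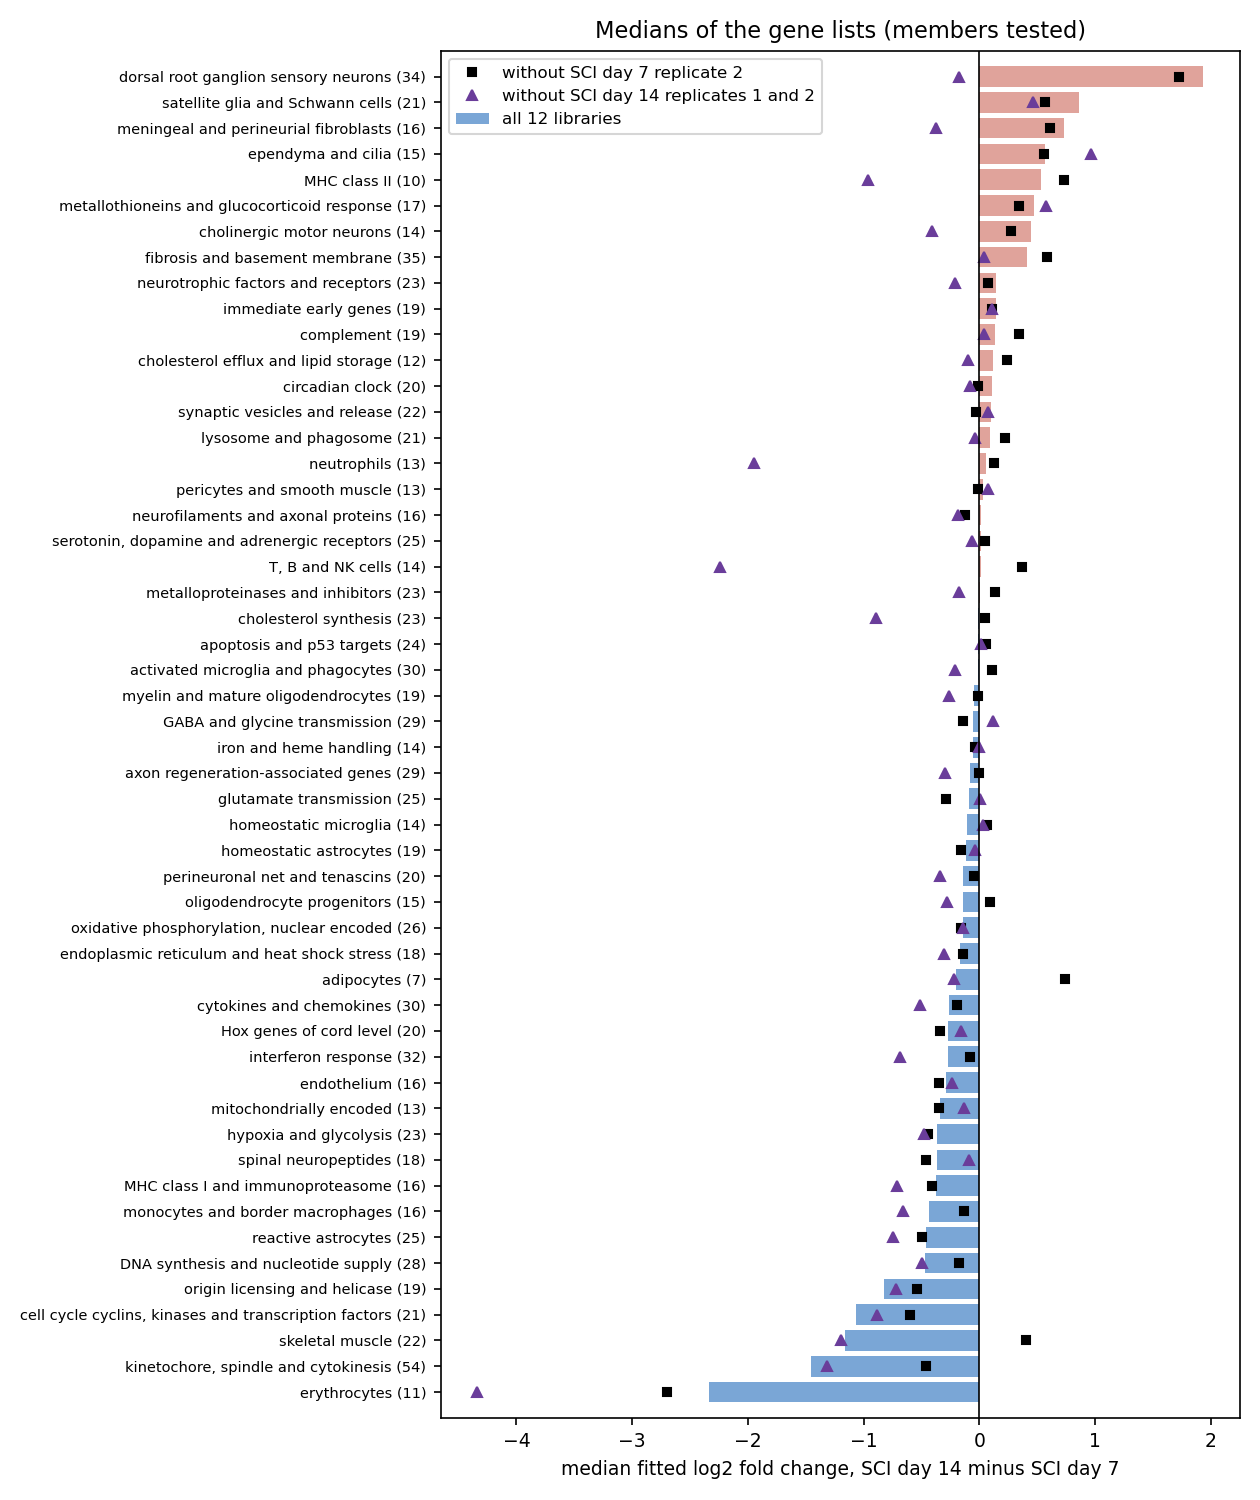
Median fitted log2 fold change, day 14 minus day 7, of each gene list (bars, with the number of members tested), with the same median without day 7 replicate 2 (squares) and without day 14 replicates 1 and 2 (triangles). The bars of the kinetochore list (-1.45) and the skeletal muscle list (-1.16) shorten or cross 0 at the squares, that of the sensory neuron list (1.94) crosses 0 at the triangles, and that of glycolysis and hypoxia (-0.36) moves little.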

How the data were processed

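The members and gene lists were chosen with earlier results of these data known. Per the file headers, the deposited table gives raw read counts per gene, and FPKM values that the authors scaled by gene length and library total; the counts were used and the FPKM values were not. Per the labels' protocols, libraries were made from total RNA with a SMARTer mRNA-Seq kit. The aligner, the counting tool and the use of strand are not named by these sources, so overlapping, antisense and near-identical genes are uncertain. The submitters' processing notes list the mouse builds GRCm38 and mm10, while the identifiers are rat Ensembl identifiers; chromosomes are those of the table.

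Of 23526 genes, edgeR's filterByExpr by group kept 18714 and removed 4812. With edgeR 4.0.16 in R 4.3.3, TMM-scaled counts of all 12 libraries were fitted with 1 mean per group and 8 residual degrees of freedom, so that the sham and day 3 libraries share in the estimate of spread (biological coefficient of variation 0.432). Day 14 was tested against day 7 with the quasi-likelihood test, and p-values, unadjusted ones included, come from this fit unless another tool is named. The standard error was taken from the log2 fold change and its F statistic. Fits with DESeq2 1.42.0 and limma 3.58.1, other scalings and filters, and left-out libraries served as alternatives. The fits were also run on simulated data, where the check had to pass only at a spread below that of these libraries. Named genes were the 15 of smallest p in each direction with no overlap and at least 5 CPM in the higher group, filling the places of genes past the threshold, up to 4 members of smallest p of each list, and 16 genes fixed by name; Eno1, Tpi1, Pdk1, Cdc45, Gins4, Stmn1, Prdm12 and Top2a's promoter were chosen after their values were seen. Some genes that the rule named are not reported here. 52 lists held 1083 symbols, of which 57 had no match in the table. No 2 libraries were copies, the closest pair differing with a chi-square of 63.0 per gene.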

Additional observations from a re-analysis of the deposited data

How the results depend on the processing

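The count of 0 genes called was the same with DESeq2 size factors, without TMM scaling, without a filter, with a filter at 1 CPM, with limma's voom, with only the day 7 and day 14 libraries, and without each of the 12 libraries in turn. DESeq2 called 49, 30 higher and 19 lower. In edgeR, 1 gene was called, lower, without day 14 replicates 1 and 2, and 1 without these and day 7 replicate 2, a setting chosen after seeing the data. Fam53b, at 0 CPM in day 14 replicate 3, was that gene in both, and stood at 0.0043 without day 7 replicates 1 and 2 and -0.99 to 0.045 without 1 library. The replicate block, with replicate numbers shared by the days, gave 0 calls, 537 genes at an unadjusted p under 0.05 (686 without it) and a proliferation median of -0.92. Same-numbered libraries of the days correlated at 0.24, 0.23 and -0.08 in their deviations. Day 7 replicates 1 and 2 correlated best with the day 14 library of their own number, and replicate 3 did not. With 3 libraries a day, these values cannot decide whether the numbers pair the samples.

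The proliferation median ranged from -1.28 to -0.34 without 1 library, and was -0.32 without day 7 replicates 1 and 2 and -0.28 without day 7 replicate 2 and day 14 replicates 1 and 2. Single genes changed sign when 1 library was left out: Cd68 (-0.15 to 1.85), Mbp (-0.28 to 0.0092), Slc12a5 (-0.51 to 0.27), Chat (-0.40 to 0.24), Acta1 (-3.82 to 0.10), Cdc45 (-0.068 to 0.18), Cd74 (-0.71 to 1.52) and Gins4 (-0.094 to 0.39). Without day 14 replicates 1 and 2, and then without day 7 replicate 2 as well, Scn10a was at -2.13 and -2.23, Prdm12 at -4.04 and -4.59, Trpa1 at -0.10 and -0.28, Slc47a1 at -0.59 and -0.30, and Cd74 at -0.71 and -0.73. Slc12a5 (0.15) and Stmn1 (-0.011) turned in the first of these settings and Acta1 (0.48) in the second. Without day 7 replicates 1 and 2, Mbp was at 0.13 and Acta1 at 0.24. These settings hold fewer libraries, and the cause of each change was not tested.

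With 3 libraries a day, no sham library of the same days, and a biological coefficient of variation of 0.432, large differences could be missed too. Fitted differences of 1 or more were seen in 906 genes and of -1 or less in 669, and 0 genes were called. Scn10a at 6.46 and Kif22 at -3.23 were among those not passed. Leaving out libraries to 1 in a group assumes that the lone library varies like the other groups. Genes near 0 CPM, such as Scn10a at day 7, rest on the fewest counts.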

Other observations

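Single members of the clock, immediate early, apoptosis and chemokine lists had different levels on the 2 days, with 0 of them past the adjusted test in edgeR and list medians near 0 for the first 3. Cry1, a repressor of the circadian clock, read 20.9, 18.9 and 24.3 CPM at day 7 and 15.3, 13.2 and 15.3 CPM at day 14 (-0.55, SE 0.16). Its day 14 libraries lay below day 7 and below the sham range of 18.9 to 22.0 CPM. Per1, another clock repressor, lay the other way at 55.2, 38.8 and 56.3 CPM and then 57.0, 87.4 and 108 CPM (0.75), and Bhlhe40, a transcription factor of the clock and of low oxygen, was at -0.62 with overlap. The 20 clock genes had a median of 0.11, with 1 higher and 1 lower without overlap (5% each, beside 5.40% and 4.83% of all genes), and the labels give no hour of sampling. Fas, the death receptor, read 7.07, 9.72 and 9.27 CPM at day 7 and 2.49, 5.11 and 3.87 CPM at day 14 (-1.18, SE 0.35), without overlap, while the 24 apoptosis and p53 genes had a median of -0.01. Egr3 and Egr1, transcription factors of early response, were the 2 of 19 immediate early genes (10.5%, beside 5.40%) that were higher without overlap, at 0.70 and 0.54 in a list with a median of 0.14, whereas Fos, of the same class, overlapped at -0.69. Ccl2, a chemokine for monocytes, read 0.855, 20.3 and 19.3 CPM at day 7 and 1.42, 3.57 and 2.07 CPM at day 14 (-2.52). Day 7 replicate 1 lay below all 3 day 14 libraries in that gene.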
